A study of Mus musculus with 8 samples.

Results

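Genes by which cells take up fatty acids, free them from stored lipid and oxidize them were followed in mouse bone marrow-derived macrophages on Affymetrix mouse arrays. The gene list held 33 symbols, chosen by pathway but with earlier results of these data known, and 32 of them had a probe set, out of 18193 genes on the array with a probe set of a single symbol. Acsl1, an acyl-CoA synthetase, had none in the annotation used and was not measured here. Where a gene had several probe sets, the one with the highest mean log2 intensity over all arrays was taken. The macrophages came from bone marrow of wild-type mice cultured with L929 supernatant, a source of macrophage colony-stimulating factor. On day 7 they were replated without that supernatant, and RNA was taken after 24 hours. There were 3 arrays of M1 macrophages, which received LPS at 100 ng/ml together with IFN-γ at 20 ng/ml, 2 arrays of M2 macrophages, which received IL-4 at 20 ng/ml, and 3 arrays of M0 macrophages, kept in medium alone. The labels describe the arrays of a condition as biological replicates, every n here is a number of arrays, and the few arrays limit the precision, above all in M2.

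Fatty acids enter a macrophage from lipoproteins and from engulfed material, travel in the cytosol on binding proteins, and are stored as triglyceride and cholesteryl ester in droplets. For oxidation they are joined to coenzyme A, carried into mitochondria by the carnitine shuttle and shortened by repeated rounds of dehydrogenation, hydration, a further dehydrogenation and thiolysis, with electrons passed to the respiratory chain. Macrophages activated with IL-4 are known for their use of fatty acid oxidation, and those activated with LPS and IFN-γ for their use of glycolysis.

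Intensities are given in units, the linear scale of the deposited values. Array medians were 38.91 to 40.41 units, and log2 intensities of arrays of a condition correlated at 0.994 to 0.997. All 32 genes had a mean of at least 64 units. Macrophage markers were above the array median on all arrays for 6 of 6 genes, with sums of 37970 to 40260 units in M1, 32740 to 35460 in M2 and 46250 to 49430 in M0. By limma 3 of the 6 were lower in M2 than in M0, Fcgr1 at a log2 difference of -3.28 (adjusted p = 1e-07) and Adgre1 and Mertk both at -1.08. In M1 against M0 2 were lower, Cd68 at -0.72 and Mertk at -0.85, and 0 were higher in either comparison. Of the adipocyte markers, relevant because adipocytes also make Fabp4, Lpl and Plin2, 4 of 6 were measured and summed to 55.1 to 60.3 units in M1, 70.0 to 78.4 in M2 and 47.5 to 52.1 in M0. Adipoq, Lep and Cidec were at most at 13.7 units on the M1 and M0 arrays and Car3 was at 20.3 to 30.0 units there, and Adipoq reached 40 and 23.1 units on the M2 arrays. Sums of neutrophil markers were 215 to 281 units in M1, 196 to 263 in M2 and 215 to 293 in M0, of T cell markers 108 to 113, 94.0 to 114 and 108 to 111, of B cell markers 108 to 153, 146 to 153 and 162 to 183, and of dendritic cell markers 217 to 229, 213 to 250 and 199 to 218 in M1, M2 and M0. The fibroblast list summed to 214 to 357 units in M1, 178 to 266 in M2 and 154 to 193 in M0, and the osteoclast list to 978 to 1294 in M1, 4601 to 5072 in M2 and 1406 to 1567 in M0. Of the 5 osteoclast markers 3 were higher in M2 than in M0 by limma, Ocstamp, Mmp9 and, at 0.63 (adjusted p = 0.0227), Ctsk. Ocstamp and Mmp9 made up most of the sum. Acp5 was at 0.04 in M2 against M0 (adjusted p = 0.917), and Calcr was at most at 10.7 units on any array. In M1 against M0, Acp5 (1.42, adjusted p = 6.45e-06) and Ocstamp were higher, and 2 of the 5 were lower. The part of these cell types in the differences below was not tested, and with whole cultures a change in the number of expressing cells cannot be told apart from a change in RNA per cell.

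LPS with IFN-γ left 12 of the 32 genes lower and 4 higher than in M0 macrophages, and 16 did not pass. A gene passed at a Benjamini-Hochberg adjusted p under 0.05 from limma, whatever the size of the difference. The genes that fell were Lpl, Fabp4, Fabp5, Lipa, Plin2, Cpt1a, Acadm, Hadhb, Hadh, Acaa2, Acat1 and Decr1, and those that rose were Acsl4, Acsl5, Eci1 and Eci2. The 16 genes are 50% of the list, beside 25.2% of all 18193 genes and 40.8% of the 9856 genes with a mean of at least 64 units. By direction, 11.5% of all genes were lower and 13.7% higher in M1, and among the brighter genes 18.2% were lower and 22.6% higher. Past the threshold and at least 2-fold, 1 gene was higher and 4 were lower, beside 2.80% and 3.20% of all genes and 4.52% and 5.10% of the brighter ones. The median log2 difference of the list was -0.11, against 0.02 over all genes.

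IL-4 moved fewer of these genes. In M2 macrophages Etfa and Hadha were higher than in M0, Fabp5, Pnpla2 and Cpt1a were lower, and 27 of 32 did not pass. The share called was 15.6%, beside 14.5% of all genes and 23.5% of the brighter ones, to which all 32 belong. The list was thus called about as often as all genes and less often than the brighter ones. The 2 higher and 3 lower genes stand beside 8.03% and 6.43% of all genes, and 12.9% and 10.5% of the brighter ones. No difference from M0 reached 2-fold in M2 on these probe sets, with log2 differences between -0.77 and 0.56 and a median of 0.07. Both comparisons use the same M0 arrays, so their values are given side by side and were not correlated.

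Compared directly, 13 genes were lower and 3 were higher in M1 than in M2 macrophages, which is 50% of the list beside 23.8% of all genes and 37.8% of the brighter ones. Of all genes 12.3% were lower and 11.5% higher in M1 than in M2, and of the brighter ones 19.3% and 18.5%. A set of 10 genes was lower in M1 against both M0 and M2, namely Lpl, Fabp4, Lipa, Plin2, Acadm, Hadhb, Hadh, Acaa2, Acat1 and Decr1. Acsl4, Acsl5 and Eci2 were higher in M1 against both. The share of all genes called in both comparisons was not counted, so these counts have none beside them. Every M1 array lay below every M0 and M2 array for 11 genes, those 10 and Etfb, and 11.8% of all genes showed this order. The opposite order, every M1 array above all others, held for 4 genes and for 13.8% of all genes. These orders were not counted among the brighter genes alone.

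**Figure D1:**
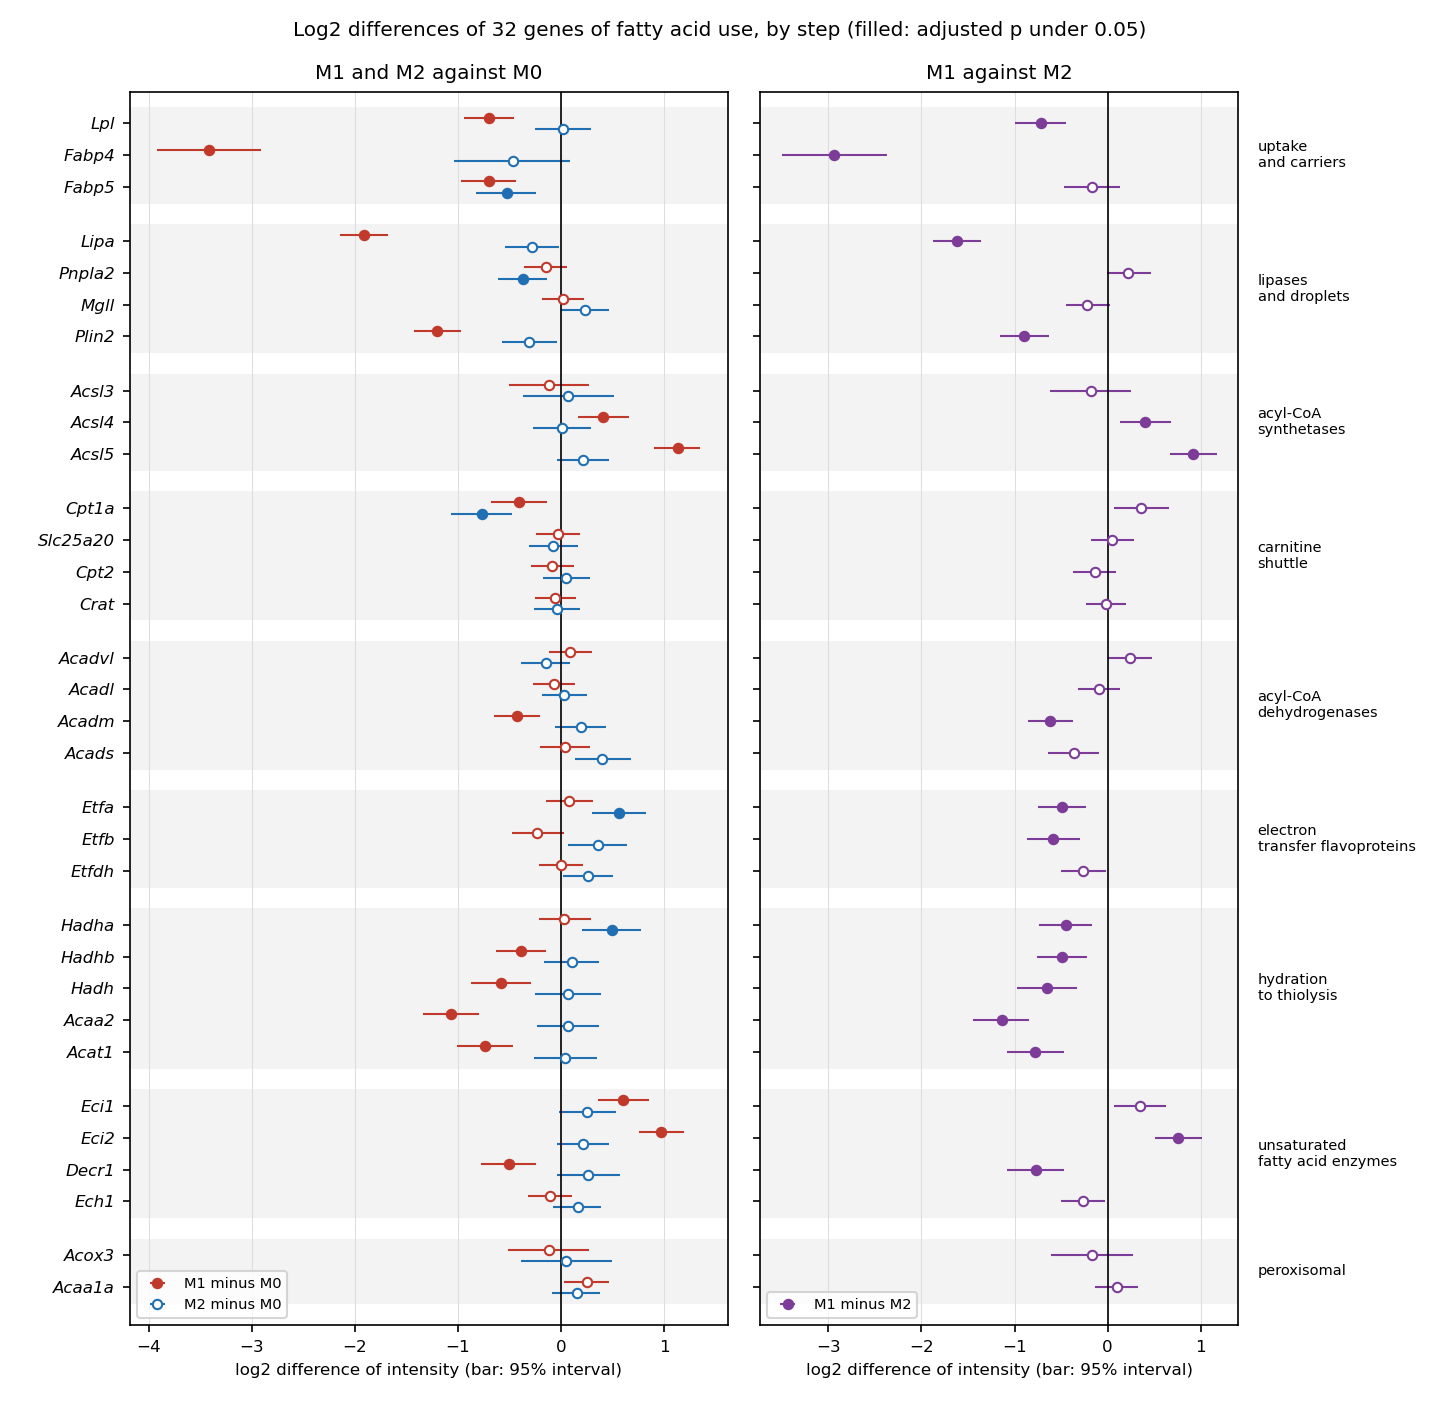
Log2 differences of intensity for the 32 genes by step, with M1 minus M0 and M2 minus M0 in the left panel and M1 minus M2 in the right panel; points are limma estimates, bars their 95% intervals, and filled points passed at an adjusted p under 0.05. Red points spread from -3.41 at Fabp4 to 1.13 at Acsl5, while blue points stay between -0.77 and 0.56.

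All 3 genes of uptake and carriage fell in M1 macrophages. Fabp4, a cytosolic fatty acid carrier of adipocytes and macrophages, had 95.7, 181 and 91.5 units on the M1 arrays, 1056 and 756 units on the M2 arrays and 1459, 1221 and 1073 units on the M0 arrays. The M1 values lay far below all others, and both M2 values lay below the lowest M0 value. The log2 difference was -3.41 in M1 against M0 (standard error 0.23, adjusted p = 6.34e-07, 10.6-fold lower) and -2.94 against M2 (standard error 0.26, adjusted p = 4.61e-06). In M2 against M0 it was -0.47, which did not pass (adjusted p = 0.305).

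Lpl, lipoprotein lipase, which frees fatty acids from circulating lipoproteins, averaged 8976 ± 1198 units in M1 (SD, n = 3), 14664 ± 83.3 in M2 (SD, n = 2) and 14470 ± 415 in M0 (SD, n = 3). It fell by 0.70 on the log2 scale in M1 against M0 (adjusted p = 0.000574), and the M2 and M0 arrays overlapped. Fabp5, the epidermal form of the carrier, was the only gene of this step to be lower after both stimuli, at -0.70 in M1 (adjusted p = 0.00114) and -0.53 in M2 (adjusted p = 0.0234). Between M1 and M2 the Fabp5 difference was -0.17, with a 95% interval of -0.47 to 0.13. The Fabp5 call in M2 on the brightest probe set was lost when any M0 or M2 array was left out, with adjusted p of 0.0712, 0.0522 and 0.0566 when M0 replicate 1, 2 or 3 was left out and of 0.123 and 0.0896 for M2 replicates 1 and 2.

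Among lipases and droplet proteins the changes in M1 fell on Lipa and Plin2. Lipa, the acid lipase that splits cholesteryl esters and triglycerides in lysosomes, had 1904, 2074 and 1647 units on the M1 arrays, 6005 and 5516 units on the M2 arrays and 6991, 7104 and 6927 units on the M0 arrays. The M1 arrays were the lowest by a wide gap, and the M2 arrays lay a little below the M0 arrays without overlap. Lipa was 3.75-fold lower in M1 than in M0 (log2 difference -1.91, standard error 0.11, adjusted p = 1.3e-07) and differed by -1.62 from M2 (adjusted p = 9.38e-07). In M2 against M0 the difference of -0.28 did not pass (adjusted p = 0.164).

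Plin2, the coat protein of lipid droplets in most cells, had 4890, 5566 and 4765 units on the M1 arrays, 10113 and 8765 on the M2 arrays and 10957, 11542 and 12446 on the M0 arrays. As with Lipa, M1 lay lowest and M2 between M1 and M0, and no arrays of different conditions overlapped. Its log2 difference was -1.20 in M1 against M0 (standard error 0.11, adjusted p = 6.31e-06), -0.90 in M1 against M2 (adjusted p = 0.000163) and -0.31 in M2 against M0 (adjusted p = 0.135). On their brightest probe sets the cytosolic lipases did not pass in M1. Pnpla2, adipose triglyceride lipase, which opens the breakdown of stored triglyceride, was at -0.15 in M1 (adjusted p = 0.349) and fell by 0.37 in M2 (adjusted p = 0.0406), a call that was lost without any single M0 or M2 array, at adjusted p of 0.071 without M0 replicate 2, 0.0963 without M0 replicate 3, 0.124 without M0 replicate 1, 0.0999 without M2 replicate 2 and 0.172 without M2 replicate 1. Mgll, which releases the last fatty acid from monoacylglycerol, was at 0.02 in M1 and 0.23 in M2 on its brightest probe set, and neither passed.

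**Figure D2:**
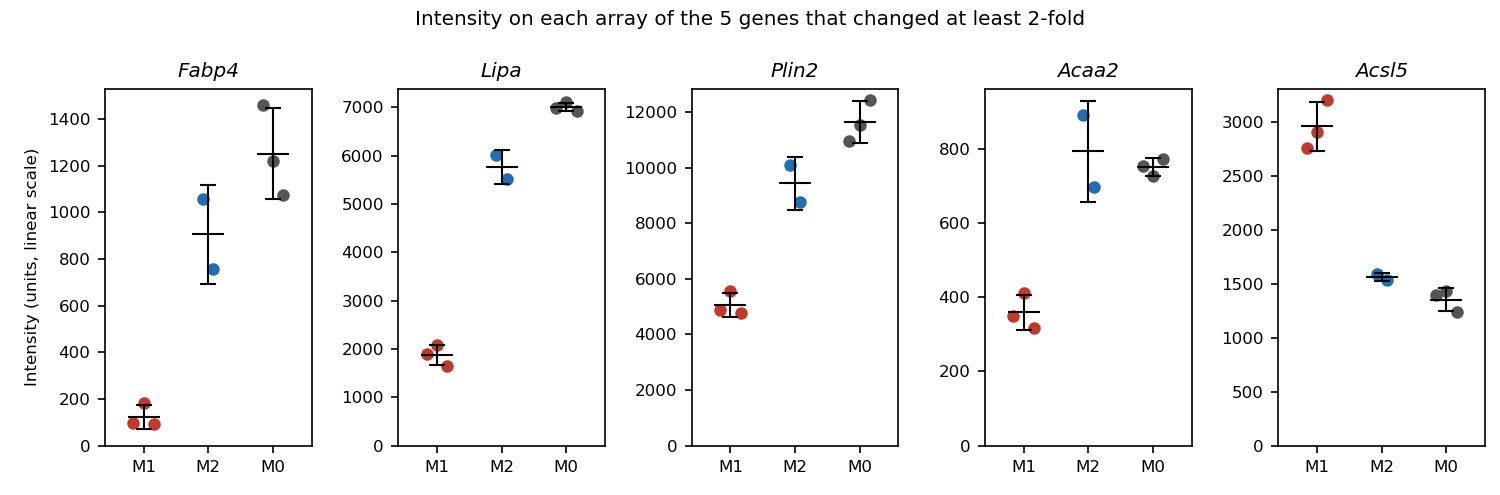
Intensity in units on a linear scale for the 5 genes that changed at least 2-fold, 1 panel a gene, with 1 point an array in M1, M2 and M0 and black marks for the mean ± SD (n = 3, 2 and 3 arrays). M1 points lie apart from all others in each panel, lower for Fabp4, Lipa, Plin2 and Acaa2 and higher for Acsl5, where they reach 2762 to 3211 units.

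The bases before the start of Lipa and Plin2 are shown because these were the lipid hydrolysis and droplet genes that differed at least 2-fold. They come from RefSeq on GRCm38.p6 and read from 250 bases before the start to the base before it. Lipa lies on the minus strand at chr19:34527475-34527724 and Plin2 on the minus strand at chr4:86670060-86670309. Capitals mark a match to AGGTCA, the core motif of nuclear receptors such as the PPARs, on either strand, the only one of the motifs searched that was found in either window.
Lipa: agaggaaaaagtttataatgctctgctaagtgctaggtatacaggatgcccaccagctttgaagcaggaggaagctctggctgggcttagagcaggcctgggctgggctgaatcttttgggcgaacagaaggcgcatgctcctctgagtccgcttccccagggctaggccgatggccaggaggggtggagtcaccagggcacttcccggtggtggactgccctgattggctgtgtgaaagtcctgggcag
Plin2: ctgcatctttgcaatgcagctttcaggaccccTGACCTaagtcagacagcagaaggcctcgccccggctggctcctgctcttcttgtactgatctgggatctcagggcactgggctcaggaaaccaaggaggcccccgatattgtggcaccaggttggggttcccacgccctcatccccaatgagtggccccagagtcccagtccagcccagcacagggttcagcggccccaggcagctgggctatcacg

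None of the 3 acyl-CoA synthetases, which join fatty acids to coenzyme A before any further use, was called lower in M1, and 2 were higher. Acsl5, a form found on mitochondria and the endoplasmic reticulum, had 2762, 2916 and 3211 units on the M1 arrays, 1590 and 1535 on the M2 arrays and 1399, 1432 and 1235 on the M0 arrays. All M1 values lay above all others, and both M2 values lay above the highest M0 value. Acsl5 rose 2.19-fold in M1 against M0 (log2 difference 1.13, standard error 0.10, adjusted p = 7.63e-06) and by 0.92 against M2 (adjusted p = 9.42e-05). At 0.21 in M2 against M0 it did not pass (adjusted p = 0.314). Acsl4, which prefers arachidonic acid, rose by 0.41 in M1 against M0 (adjusted p = 0.0215) and by 0.40 against M2 (adjusted p = 0.0445). The first of these Acsl4 calls was lost without M0 replicate 2 (adjusted p = 0.0556), M0 replicate 3 (0.0862), M1 replicate 1 (0.0922) or M1 replicate 2 (0.0552), and the second without any array but M1 replicate 3, with adjusted p between 0.0567 and 0.155. Acsl3, a synthetase of the endoplasmic reticulum and droplets, was at -0.12 in M1 and 0.07 in M2 and its arrays overlapped between all conditions. The window before Acsl5, on the plus strand of GRCm38.p6 at chr19:55253119-55253368, is shown as the counterpart that rose and held no match to the motifs searched.
Acsl5: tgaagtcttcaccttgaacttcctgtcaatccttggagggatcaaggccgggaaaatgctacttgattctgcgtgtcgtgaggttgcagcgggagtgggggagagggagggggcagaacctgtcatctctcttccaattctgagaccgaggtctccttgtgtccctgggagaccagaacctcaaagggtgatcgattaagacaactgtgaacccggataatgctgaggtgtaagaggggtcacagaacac

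In the carnitine shuttle only Cpt1a, the entry enzyme of the outer mitochondrial membrane that malonyl-CoA inhibits, passed in any comparison. It averaged 735 ± 61.0 units in M1 (SD, n = 3), 570 ± 38.5 in M2 (SD, n = 2) and 981 ± 149 in M0 (SD, n = 3). Both stimuli left it lower than M0, by 0.77 on the log2 scale in M2 (adjusted p = 0.00259) and 0.41 in M1 (adjusted p = 0.0319), and the arrays of M2, M1 and M0 did not overlap. The gap of 0.36 between M1 and M2 did not pass on this brightest probe set (adjusted p = 0.0907). It passed on the second set, at 0.38 (adjusted p = 0.0489), and not on the third, at 0.34 (adjusted p = 0.0729). M0 replicate 3, at 1152 units, stood above the other M0 arrays at 911 and 878 units, and the M1 call was lost without it (-0.29, adjusted p = 0.149), without M1 replicate 2 (adjusted p = 0.0695) or without M1 replicate 3 (adjusted p = 0.112). Slc25a20, the carrier of acylcarnitines across the inner membrane, Cpt2, which returns the acyl group to coenzyme A inside, and Crat, which handles acetyl groups, lay between -0.09 and -0.03 in M1 and between -0.08 and 0.05 in M2. Their 95% intervals against M0 stayed within -0.31 and 0.28, so differences beyond about that size were not seen on their brightest probe sets.

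Of the 4 acyl-CoA dehydrogenases, which take the first electrons from fatty acids of falling chain length, the medium-chain enzyme Acadm fell by 0.43 in M1 (adjusted p = 0.00864) and differed by -0.62 from M2 (adjusted p = 0.0018). The first call rested on M0 replicate 2, without which it was -0.37 (adjusted p = 0.0548). Acadvl and Acadl, for very long and long chains, were at 0.09 and -0.07 in M1 and at -0.15 and 0.03 in M2. Acads, for short chains, was at 0.04 in M1 and at 0.40 in M2 (adjusted p = 0.0611). Both M2 arrays of Acads, at 572 and 474 units, lay above all M0 arrays, at 420, 368 and 397 units. The M2 difference passed without M1 replicate 3 (adjusted p = 0.049), an array that enters only the shared variance.

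Electron transfer flavoprotein carries those electrons onward, and the genes of both its subunits were lower in M1 than in M2. Etfa, its alpha subunit, averaged 1182 ± 69.6 units in M1 (SD, n = 3), 1661 ± 205 in M2 (SD, n = 2) and 1121 ± 72.4 in M0 (SD, n = 3). It rose by 0.56 in M2 against M0 (adjusted p = 0.00804) and was 0.49 lower in M1 than in M2 on the log2 scale (adjusted p = 0.0116), while M1 and M0 overlapped. Etfb, the beta subunit, differed by -0.59 between M1 and M2 (adjusted p = 0.00694), with -0.23 in M1 and 0.36 in M2 against M0, neither past the threshold. Etfdh, which hands the electrons to ubiquinone, was at 0.26 in M2 (adjusted p = 0.172). These calls depended on M2 replicate 1, the higher of the M2 arrays. Without it Etfa was at 0.44 in M2 against M0 (adjusted p = 0.0895) and at -0.36 in M1 against M2 (adjusted p = 0.128), and Etfb at -0.41 in M1 against M2 (adjusted p = 0.099), while without M2 replicate 2 Etfb passed in M2 against M0 at 0.53 (adjusted p = 0.0499).

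The steps from hydration to thiolysis held most of the mitochondrial genes that were lower in M1. Of 5 genes, 4 were lower in M1 than in M0 and all 5 were lower than in M2, beside 11.5% and 12.3% of all genes. On the brightest probe sets the calls of Hadha, Hadhb and, against M2, Hadh were lost without single arrays. Acaa2, the mitochondrial thiolase for medium and long chains, had 351, 412 and 317 units on the M1 arrays, 892 and 699 on the M2 arrays and 754, 728 and 775 on the M0 arrays. The M1 arrays lay at about the same distance below both other conditions, and the M2 arrays fell on either side of the M0 arrays. Acaa2 was 2.10-fold lower in M1 than in M0 (log2 difference -1.07, standard error 0.12, adjusted p = 5.25e-05) and differed by -1.14 from M2 (standard error 0.14, adjusted p = 7.37e-05).

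Acat1, the thiolase for acetoacetyl-CoA, which also serves ketone bodies and isoleucine breakdown, fell by 0.74 in M1 against M0 (adjusted p = 0.000944) and differed by -0.78 from M2 (adjusted p = 0.00154). Hadh, the hydroxyacyl-CoA dehydrogenase of short and medium chains, fell by 0.58 (adjusted p = 0.0073) and differed by -0.65 from M2 (adjusted p = 0.00773), a difference that was -0.55 without M2 replicate 1 (adjusted p = 0.0878). Hadha and Hadhb encode the alpha and beta subunits of the trifunctional protein, a single complex for long chains. Hadha, whose subunit holds the hydratase and dehydrogenase, was at 0.03 in M1 and rose by 0.49 in M2 (adjusted p = 0.0303). Hadhb, whose subunit holds the thiolase, fell by 0.39 in M1 (adjusted p = 0.0257) and was at 0.10 in M2. The difference between these genes was not tested itself. Both were lower in M1 than in M2, Hadha by 0.45 (adjusted p = 0.0287) and Hadhb by 0.49 (adjusted p = 0.0142).

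All 4 of these Hadha and Hadhb calls, made on the brightest probe sets, depended on single arrays. Hadha in M2 against M0 was lost without M0 replicate 1 (adjusted p = 0.0943), M0 replicate 2 (0.0966), M2 replicate 1 (0.163) or M2 replicate 2 (0.0851), and in M1 against M2 without M1 replicate 1 (0.0646), M1 replicate 2 (0.0882), M2 replicate 1 (0.164) or M2 replicate 2 (0.0724). Hadhb in M1 against M0 was lost without M0 replicate 2 (0.122), M0 replicate 3 (0.114) or any M1 array (0.0697, 0.0606 and 0.0539 without replicates 1, 2 and 3), and in M1 against M2 without M2 replicate 1 (0.0624) or M2 replicate 2 (0.0773).

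Hadha and Hadhb lie head to head on chromosome 5 of GRCm38.p6, their RefSeq starts 273 bases apart at 30154980 on the minus strand and 30155253 on the plus strand. The window before Hadhb, chr5:30155003-30155252 on the plus strand, shares 228 bases with the window before Hadha and is shown because most of it lies before both genes of the complex. Capitals mark a match to the STAT element TTCNNNGAA, which lies 125 to 117 bases before the Hadhb start and, on the other strand, 156 to 148 bases before the Hadha start.
Hadhb: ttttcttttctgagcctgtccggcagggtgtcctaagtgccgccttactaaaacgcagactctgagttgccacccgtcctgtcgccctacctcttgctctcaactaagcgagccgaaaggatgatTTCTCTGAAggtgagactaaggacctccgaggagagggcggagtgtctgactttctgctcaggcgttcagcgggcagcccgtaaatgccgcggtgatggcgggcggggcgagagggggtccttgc

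**Figure D3:**
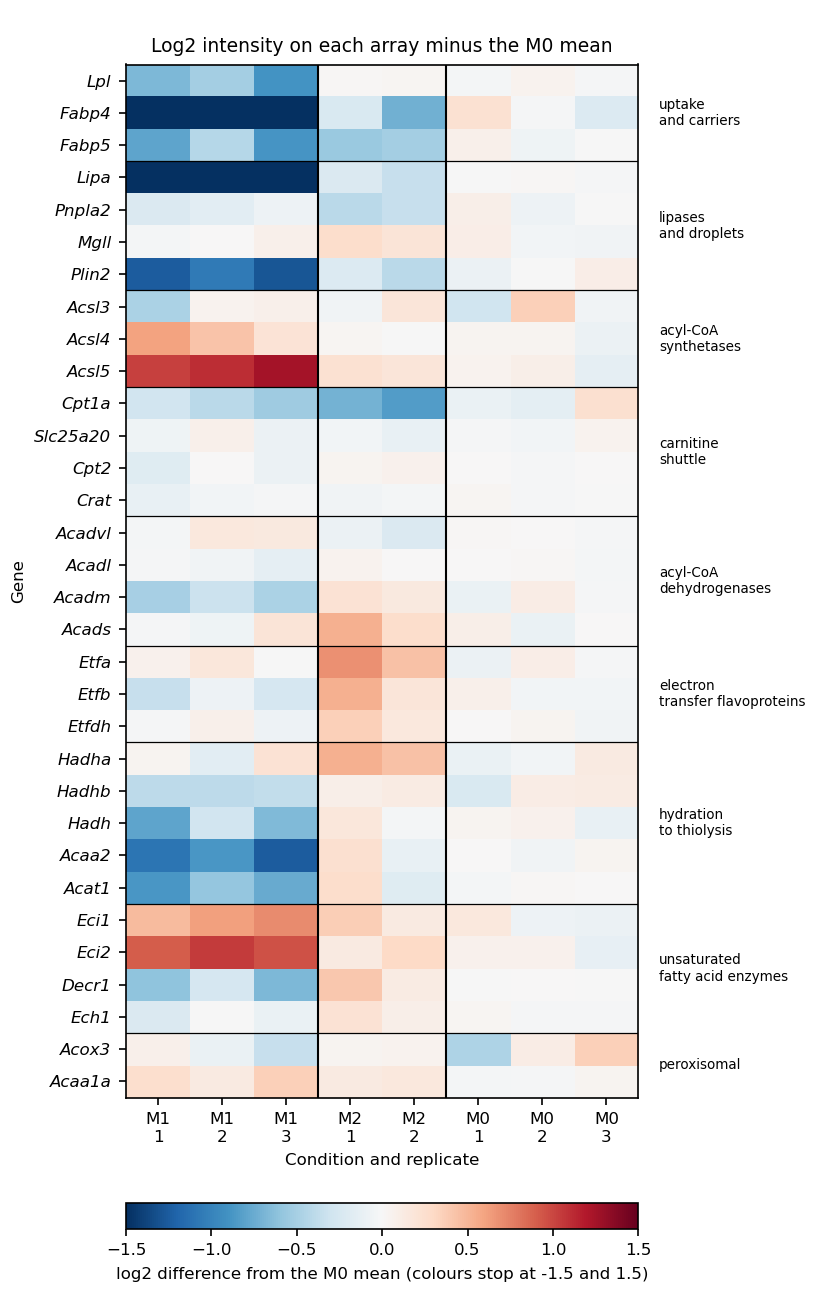
Log2 intensity of the 32 genes on each array minus the mean of the 3 M0 arrays, with columns for M1 replicates 1 to 3, M2 replicates 1 and 2 and M0 replicates 1 to 3, rows by step, and colours that stop at -1.5 and 1.5. M1 columns are blue from Hadhb to Acat1 and red at Acsl5, Eci1 and Eci2, and from Acads to Hadha the M2 columns are red, deeper in M2 replicate 1.

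Enzymes that prepare unsaturated fatty acids for oxidation split in M1. Eci1 and Eci2, isomerases that move a double bond into place, rose by 0.60 (adjusted p = 0.00198) and 0.97 (adjusted p = 2.36e-05) in M1 against M0. Eci2 averaged 762 ± 39.4 units in M1 (SD, n = 3), 451 ± 37.2 in M2 (SD, n = 2) and 389 ± 28.1 in M0 (SD, n = 3), and its M1 arrays lay above all others. It also stood 0.76 higher in M1 than in M2 (adjusted p = 0.000414), whereas for Eci1 that difference was 0.35 and did not pass (adjusted p = 0.0778). Decr1, the reductase for adjacent double bonds, went the other way, with -0.51 in M1 against M0 (adjusted p = 0.0107) and -0.77 against M2 (adjusted p = 0.00161). Ech1, a dienoyl-CoA isomerase, was at -0.11 in M1 and 0.16 in M2 and did not pass. By limma none of the 4 passed in M2 against M0, also at an unadjusted p under 0.05, where they lay between 0.16 and 0.26.

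The 2 peroxisomal genes of the list were not called in any comparison on their brightest probe sets, unlike some further peroxisomal genes given below. Acox3, an acyl-CoA oxidase for branched chains, was at -0.12 in M1 (95% interval -0.52 to 0.27) and at 0.05 in M2, and its arrays overlapped between all conditions. Acaa1a, the peroxisomal thiolase, was at 0.25 in M1 (95% interval 0.03 to 0.46, adjusted p = 0.104) and 0.15 in M2. All 3 of its M1 values and both M2 values lay above the highest M0 value.

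The M2 arrays differed from each other in the mitochondrial genes. For 16 of the 20 genes of the carnitine shuttle and mitochondrial oxidation, M2 replicate 1 was above M2 replicate 2, with a median log2 difference of 0.14. Among all genes 52.0% were higher in M2 replicate 1, and among the brighter genes 57.8%, with median differences of 0.01 and 0.04. Without M2 replicate 1 no gene of the list was called higher in M2 than in M0 by limma, where 2 were with it and where 11 had an unadjusted p under 0.05 in either direction. The genes called lower in M1 than in M2 then numbered 8 in place of 13.

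A gene's probe sets did not always give the same size of difference. For 21 of the 32 genes there was more than 1 probe set, and no gene had probe sets called in opposite directions in any of the comparisons. The falls of Lpl, Fabp4, Fabp5, Lipa, Cpt1a, Acaa2, Acat1 and Decr1 in M1 against M0 were called on every probe set of these genes. They ran from -0.89 to -3.41 for Fabp4, from -1.91 to -2.50 for Lipa and from -0.41 to -0.57 for Cpt1a. Hadh and Hadhb were not called on their dimmest set. Lpl differed by -1.37 in M1 on its dimmer probe set and Fabp5 by -1.13, beside -0.70 for both on the brightest. In M2 that dimmer set of Fabp5 was at -0.88 (adjusted p = 0.00287), beside -0.53 on the brightest. Acsl4 gave 0.71 and 1.12 in M1 on its other probe sets, and the brighter of these also passed in M2 at 0.65 (adjusted p = 0.018) and was at 0.07 in M1 against M2 (adjusted p = 0.847). The third probe set of Lipa was lower in M2, at -0.65 (adjusted p = 0.0136).

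For Mgll, Crat, Acaa1a and Pnpla2, and for Acsl4 and Cpt1a in M1 against M2, the choice of probe set decided the result. The brightest set of Mgll was not called, yet its other 3 sets were higher in M2 than in M0, by 0.67 (adjusted p = 0.00408), 0.90 (adjusted p = 0.00393) and 1.31 (adjusted p = 9.08e-05), and lower in M1 than in M2, by 1.07, 1.06 and 1.77. On the set with the largest of these differences Mgll averaged 32.6 units in M1, 112 in M2 and 44.8 in M0. The 4 sets were dim, with condition means from 32.6 to 112 units. The second set of Crat fell by 0.57 in M1 (adjusted p = 0.000598), and the second set of Acaa1a rose by 0.60 (adjusted p = 0.00141). The second set of Pnpla2, with means of 14.2 units in M1, 16.4 in M2 and 14.0 in M0, was at 0.22 in M2 (adjusted p = 0.225), opposite in sign to the brightest set.

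**Figure D4:**
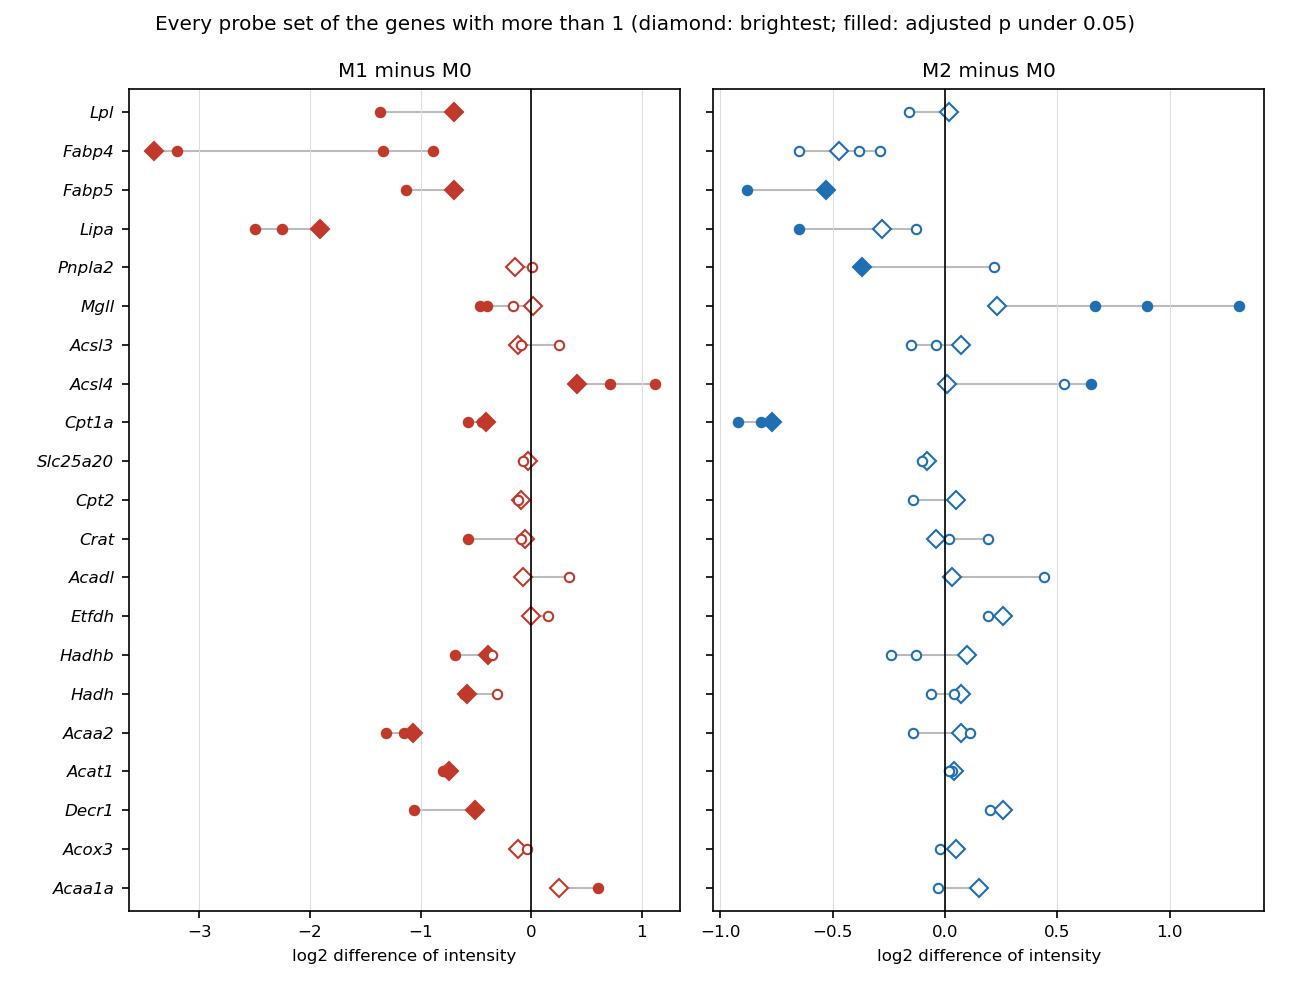
Log2 differences in M1 minus M0 and M2 minus M0 for every probe set of the 21 genes with more than 1, with a diamond for the brightest probe set, circles for the others, and filled symbols for an adjusted p under 0.05. The 4 probe sets of Mgll run from 0.23 to 1.31 in M2 minus M0, and the 3 of Cpt1a stay together on the lower side.

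Promoter windows were at hand for 25 of the 32 genes, all but Lpl, Fabp4, Fabp5, Crat, Acaa2, Acat1 and Decr1. Searched on both strands, the nuclear receptor core AGGTCA occurred before Plin2, Cpt1a, Acadvl and Acadm, which is 16.0% of the 25 genes beside 14.0% of all 32851 RefSeq windows of the same length. The match of Plin2 lay 218 to 213 bases before its start and that of Cpt1a 94 to 89 bases before. The STAT element TTCNNNGAA occurred before Cpt2, Hadha and Hadhb (12.0% of the genes, 7.02% of all windows), and the Hadha and Hadhb matches are the same site read on opposite strands. The E-box CACGTG occurred before 1 of the 25 genes, Mgll, and in 6.02% of all windows. No window of these genes held the ERR element TCAAGGTCA, which contains the core AGGTCA and was found in 0.387% of all windows. These matches describe letters in a window and were not tested for binding.

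Outside the list, 70 further genes of the same pathway were looked up and 64 were measured. In M1 against M0, 14 of them were higher and 9 lower, in M2 against M0 8 were higher and 3 lower, and in M1 against M2 10 were higher and 14 lower. The shares called were 35.9%, 17.2% and 37.5%, beside 25.2%, 14.5% and 23.8% of all genes. Among them were 11 further peroxisomal genes, a group picked out after its values were seen. Of these 1 was higher and 3 lower in M1 against M0, and 2 were higher and 0 lower in M2 against M0. In M1 against M2, 1 was higher and 4 were lower. Their shares called were 36.4%, 18.2% and 45.5%. Cd36, a scavenger receptor that also takes up fatty acids, averaged 1677 ± 528 units in M1 (SD, n = 3), 7765 ± 226 in M2 (SD, n = 2) and 6510 ± 691 in M0 (SD, n = 3), and fell by 2.01 in M1 against M0 (adjusted p = 1.4e-05). Pparg, the nuclear receptor known in macrophages for control of lipid genes such as Fabp4 and Cd36, averaged 22.2 ± 4.55 units in M1, 461 ± 79.2 in M2 and 317 ± 44.4 in M0 (SD, n = 3, 2 and 3). It fell by 3.85 in M1 (adjusted p = 1.2e-08), where it was below the array median, which leaves the size uncertain.

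Outside the list a gene of triglyceride synthesis had the largest rise of these further genes in M1. Dgat2, which makes triglyceride, averaged 1018 ± 457 units in M1, 57.3 ± 11.2 in M2 and 56.6 ± 3.01 in M0 (SD, n = 3, 2 and 3), and rose by 4.08 in M1 (adjusted p = 2.02e-07). Hilpda, a droplet protein that inhibits adipose triglyceride lipase, rose by 1.85 in M1 (adjusted p = 0.000418). Its M1 arrays were uneven, at 1386, 532 and 580 units. The call was lost under 3 of 21 alternatives, among them a floor of 64 units (adjusted p = 0.0527). By limma the rise could be called neither particular to M1 nor shared with M2. In M2 against M0 Hilpda was at 1.02 (adjusted p = 0.0538), which passed under 6 of the alternatives. M1 against M2 did not pass, at 0.82 (adjusted p = 0.0962). Of the 10 further genes of lipases and droplets, 5 rose in M1 and none fell by limma (6 at an unadjusted p under 0.05 in either direction), the others being Lipe, Abhd5 and Dgat1 at 0.55, 0.51 and 0.55. Among 10 further genes of mitochondrial oxidation 5 rose in M1 and none fell (5 at an unadjusted p under 0.05). Beside both counts, 13.7% of all genes and 22.6% of the brighter ones were higher in M1. Of these mitochondrial genes Echs1 rose by 0.72, Etfrf1 by 0.73, Acad11 by 0.59, Acadsb by 0.43 and Hsd17b10 by 0.40. Echs1, the short-chain hydratase, and Hsd17b10, a hydroxyacyl-CoA dehydrogenase, belong to the same steps as Hadh and Acaa2, which fell. These groups of further genes, with Lipe, Abhd5, Dgat1 and these 5 genes, were picked out after their values were seen. The second probe set of Etfrf1 was at -0.19 (adjusted p = 0.386), and the Hsd17b10 call was lost without M0 replicate 3 (adjusted p = 0.0684) or M1 replicate 2 (adjusted p = 0.0517). Oxct1, which begins the use of ketone bodies and hands acetoacetyl-CoA to Acat1, was lower in M1 than in M0 by 1.21 (adjusted p = 1.43e-05) and differed by -1.73 from M2 (adjusted p = 1.48e-06).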

How the data were processed

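The authors hybridized RNA of 8 macrophage cultures to Affymetrix arrays, and GenePattern (its Expression File Creator, RMA method) gave the authors' deposited intensity values, which are on a linear scale. RMA corrects background and equalizes the distributions between arrays, and can shrink differences of dim probe sets. The log2 of each intensity was taken and 64 control probe sets were left out. The other 45037 were fitted with limma 3.58.1 in R 4.3.3 (lmFit and eBayes), all 8 arrays in 1 model with a mean per condition, 5 residual and 6.95 prior degrees of freedom, and Benjamini-Hochberg adjustment over all of them. The annotation gave 34945 of these probe sets 1 symbol. No batch was named in the sources used here. Values on every array were given for genes called with an absolute log2 difference of at least 1, and of the other pathway genes those past the same limit could be named. Members and lists were chosen with earlier results of these data known. Deviations of same-numbered arrays correlated at -0.172 to 0.055 over 7 pairs. For differently numbered arrays the range was -0.150 to 0.190 over 14 pairs. With so few arrays per condition these ranges cannot decide whether same-numbered arrays shared a mouse. The main fit did not pair the arrays. P-values cover the spread between these arrays only, since the sources differ on how many mice gave them. Promoter sequences came from RefSeq (GRCm38.p6). The fit was tested on simulated data. Alternatives are given in the closing section. Python 3.11.15 with matplotlib 3.10.9 made the figures.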

Additional observations from a re-analysis of the deposited data

How the results depend on the processing

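The falls of Fabp4, Lipa, Plin2 and Acaa2 and the rise of Acsl5 in M1 against M0 kept their direction and passed under all 21 alternatives, as did Lipa in M1 against M2. The 2-fold alternative could not fail here, since these genes were taken as those that changed at least 2-fold. Plin2 and Acsl5 have 1 probe set each, so for them the alternatives on the choice of probe set repeat the main result. With the replicate number as a block, 4 genes of the list were higher and 11 lower in M1 against M0, and 2 higher and 2 lower in M2 against M0, with Cpt1a in M1 (adjusted p = 0.0524) and Pnpla2 in M2 (-0.36, adjusted p = 0.108) lost and no other call of the list changed. Leaving out each array in turn gave 3 to 4 higher and 10 to 12 lower in M1 against M0, 0 to 3 and 1 to 3 in M2 against M0, and 2 to 3 and 8 to 14 in M1 against M2, and for the other pathway genes 13 to 15 and 7 to 10, 4 to 9 and 2 to 3, and 6 to 11 and 11 to 15. The lowest counts of higher genes in M2 against M0, 0 of the list and 4 of the other pathway genes, came without M2 replicate 1, and the lowest count of higher pathway genes in M1 against M2, 6, without M2 replicate 2. The methods' t-test, adjusted over all probe sets, called 9 genes of the list in M1 against M0. Of these 6 were lower, and the others, Acsl5, Eci1 and Eci2, were higher. It called 0 genes of the list in either direction in M2 against M0 (11 at an unadjusted p under 0.05), and 1 higher and 2 lower in M1 against M2. For the other pathway genes it called 8 higher and 5 lower, 0 and 0, and 2 and 4. On linear values it called 9 genes of the list in M1 against M0, 6 lower and again Acsl5, Eci1 and Eci2 higher. There it called 0 in either direction in M2 against M0 (9 unadjusted), and 0 higher and 2 lower in M1 against M2. For the other pathway genes it called 6 higher and 4 lower, 1 and 0, and 2 and 3. A floor of 64 units left limma with 0 higher and 1 lower genes of the list in M2 against M0 (11 unadjusted) and 4 and 1 of the other pathway genes, and a further quantile normalization left 1 higher. An adjusted p under 0.01 left 1 higher and 1 lower of the list in M2 against M0, 5 higher pathway genes there and 6 in M1 against M2. Asking for at least 2-fold left 1 higher and 4 lower of the list in M1 against M0, 0 and 0 in M2 against M0 and 0 and 3 in M1 against M2, and of the other pathway genes 2 and 3, 4 higher in M2, and 3 and 6. With the second-brightest probe set 4 genes of the list were higher in M2, and of the other pathway genes 9 were higher in M1 and 1 lower in M2 against M0, and 6 higher in M1 against M2. That choice turned the sign of Pnpla2 in M2 (0.22) and of Etfrf1 in M1 against M0 (-0.19) and against M2 (-0.13). The cause of these changes was not tested. Median centring shifted all genes by at most 0.036.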

Other observations

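After IL-4, several pathway genes outside the list differed from M0 at least 2-fold. Slc27a3, a member of the fatty acid transport protein family, averaged 24.9 ± 2.40 units in M1, 96.7 ± 13.9 in M2 and 28.2 ± 1.93 in M0 (SD, n = 3, 2 and 3), and rose by 1.77 in M2 against M0 (adjusted p = 2.34e-06 from limma). Its M1 and M0 values lay below the array medians, which leaves the size of the rise uncertain, and with a floor of 64 units it was 0.59 (adjusted p = 0.0273). Fabp3, a carrier related to Fabp4, fell by 1.81 in M2 (adjusted p = 0.000115), although its second-brightest probe set was at -0.10 (adjusted p = 0.757). The acetyl-CoA synthetases moved apart in M2. Acss1, the mitochondrial form, rose by 1.18 (adjusted p = 6.38e-05), with 356 ± 43.5 units in M2 and 157 ± 18.1 in M0 (SD, n = 2 and 3), and Acss2, the form of cytosol and nucleus, fell by 1.03 (adjusted p = 0.00113), with 129 ± 30.4 units in M2 and 262 ± 25.7 in M0. In M1 against M2 they differed by -1.53 and 1.45 (adjusted p = 3.02e-06 and 3.56e-05). The second-brightest probe set of Acss1 did not pass in M2, at 0.49 (adjusted p = 0.0986).

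Ppargc1b, a coactivator known for its part in mitochondrial gene expression, rose after both stimuli, by 0.72 in M1 (adjusted p = 0.000878) and 1.51 in M2 (adjusted p = 1.16e-05), and was 0.80 lower in M1 than in M2 on the log2 scale (adjusted p = 0.000956). Abcd2, a peroxisomal transporter of fatty acyl-CoA, rose by 1.02 in M2 (adjusted p = 0.00992), a call lost without M2 replicate 1 (0.77, adjusted p = 0.127). Acot1, a cytosolic acyl-CoA thioesterase, fell by 1.00 in M1 (adjusted p = 0.0011) at 17.5 ± 3.78 units in M1 and 34.6 ± 4.68 in M0 (SD, n = 3 each), all below the array median.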
